A study of Mus musculus with 15 samples.

Results

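The genes described here are 9 complement genes, 8 components or inhibitors (C1qa, C1qb, C1qc, C2, C3, C4b, Cfb and Serping1) and the receptor gene C3ar1, given as a list of names and found by Ensembl identifier among the 39179 genes of each of the 15 count files. RNA came from quadriceps muscle of C57BL/6 mice that were wild-type for Mrps5 or homozygous for the Mrps5 V338Y knock-in, a point mutation of a mitochondrial ribosomal protein that raises misreading during mitochondrial protein synthesis. Each genotype was taken young (3 mo; 4 mice per genotype) and aged (19 mo; 3 wild-type mice, numbered 2, 4 and 5, and 4 V338Y mice, numbered 2 to 5), with no treatment in any group and each library from 1 mouse. The mutation is carried in every tissue, so whole muscle does not separate the fibers from the other cells in it. The comparisons asked how complement transcripts differed with age in each genotype and with genotype at each age.

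Complement is a set of plasma and tissue proteins that tag and attack targets. In the classical pathway C1q, built from the C1qa, C1qb and C1qc chains, binds a target, and its proteases cleave C4 and C2 to form an enzyme that cleaves C3. Factor B (Cfb) forms the corresponding enzyme of the alternative pathway, the C1 inhibitor (Serping1) blocks the proteases of C1, and C3ar1 is the receptor for the C3a fragment. Liver supplies most complement in plasma, while tissue macrophages are a known source of C1q and stromal cells of C3, C4 and C1 inhibitor.

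Depth ran from 8250653 to 18968132 counts per mouse, and levels are given as CPM, in which each count is divided by its library's total after scaling with edgeR's TMM factors. The members had 36 to 7302 counts in a mouse, and the counts of C3ar1 and C2 were the fewest. The mutation is a single codon and cannot be read from gene counts: in young mice Mrps5 stood at 23.6 ± 1.8 CPM (SD, n = 4) without and 25.7 ± 1.5 (n = 4) with the mutation, and in aged mice at 17.6 ± 1.8 (n = 3) and 17.4 ± 1.6 (n = 4). The methods describe female mice, with no sex stated for the aged V338Y mice, but the 8 libraries of 3 mo mice held 163 to 202 CPM of the Y-linked Ddx3y and at most 0.574 CPM of Xist, whereas the 7 libraries of 19 mo mice held 506 to 630 CPM of Xist and at most 0.0826 CPM of Ddx3y. Age and sex therefore cannot be told apart in any comparison of 19 mo with 3 mo below. The library of aged V338Y mouse 5 stood apart, with 619 summed CPM over 8 neutrophil genes against 26.3 or less in the other 14 mice and 1207 CPM of the slow-fiber myosin Myh7 against 319 or less. The young wild-type mouse 3 had the highest summed level of 6 hepatocyte genes (360 CPM), and the calls of members that depended on either mouse are also given without it.

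All 9 genes lie on the minus strand of GRCm38. Their identifiers are ENSMUSG00000036887 (C1qa), ENSMUSG00000036905 (C1qb), ENSMUSG00000036896 (C1qc), ENSMUSG00000024371 (C2), ENSMUSG00000024164 (C3), ENSMUSG00000073418 (C4b), ENSMUSG00000090231 (Cfb), ENSMUSG00000023224 (Serping1) and ENSMUSG00000040552 (C3ar1). The C1q genes form a cluster on chromosome 4, C1qb at 136880129 to 136886187, C1qc at 136889804 to 136893065 and C1qa at 136895917 to 136898803. C4b (34728380 to 34743882), Cfb (34856374 to 34862518) and C2 (34862604 to 34898265) lie within the class III region of the major histocompatibility complex on chromosome 17, and C3 lies farther along that chromosome at 57203970 to 57228136. Serping1 is on chromosome 2 at 84765387 to 84775444 and C3ar1 on chromosome 6 at 122847138 to 122856161. The annotated gene Gm20547 overlaps Cfb and C2 on the same strand, and of the windows of 100 bases in their transcripts it shares 66.9% of those of Cfb and 35.5% of those of C2. It took 46.5 to 48.4% of the counts of C2, Cfb and Gm20547 in every mouse, so the levels of Cfb and C2 depend on how the authors' counting divided shared reads. C4a, a near copy of C4b, shares 15.2% of the C4b windows, and took at most 3.73% of the counts of the C4 pair.

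The 250 bases before the transcript start are shown for the 4 members matched in the promoter table used, so that the start regions of a pair of C1q chains, of C3 and of its receptor gene can be compared. They are from RefSeq (GRCm38.p6), read 5′ to 3′ on the minus strand, from chr4:136886201-136886450 for C1qb, chr4:136892915-136893164 for C1qc, chr17:57228137-57228386 for C3 and chr6:122856158-122856407 for C3ar1. In GENCODE the starts of C1qc and C3ar1 lie inside these windows. The annotated C1qc gene covers its window from 136892915 to 136893065, and the annotated C3ar1 gene covers its window from 122856158 to 122856161. Capitals mark matches on either strand to the PU.1 core GAGGAA, the interferon-stimulated response element (GAAA, any 2 bases, GAAA), the STAT palindrome TTCNNNGAA or the NF-kappaB motif (GGG, any 2 bases, TT, any 1 base, CC).
C1qb: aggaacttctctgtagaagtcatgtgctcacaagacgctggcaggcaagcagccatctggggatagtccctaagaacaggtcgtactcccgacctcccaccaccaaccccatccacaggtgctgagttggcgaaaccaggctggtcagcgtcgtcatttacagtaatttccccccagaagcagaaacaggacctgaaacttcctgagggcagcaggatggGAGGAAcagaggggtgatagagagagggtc
C1qc: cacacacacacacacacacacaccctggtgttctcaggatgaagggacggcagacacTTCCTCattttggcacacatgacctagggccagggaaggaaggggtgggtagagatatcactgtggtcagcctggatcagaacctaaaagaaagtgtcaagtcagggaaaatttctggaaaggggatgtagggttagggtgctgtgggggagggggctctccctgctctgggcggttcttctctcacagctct
C3: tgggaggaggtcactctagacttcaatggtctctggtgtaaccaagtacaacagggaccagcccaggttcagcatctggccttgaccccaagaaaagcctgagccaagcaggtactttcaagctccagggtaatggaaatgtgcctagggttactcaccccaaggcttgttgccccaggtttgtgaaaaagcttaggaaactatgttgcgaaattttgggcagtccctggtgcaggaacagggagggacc
C3ar1: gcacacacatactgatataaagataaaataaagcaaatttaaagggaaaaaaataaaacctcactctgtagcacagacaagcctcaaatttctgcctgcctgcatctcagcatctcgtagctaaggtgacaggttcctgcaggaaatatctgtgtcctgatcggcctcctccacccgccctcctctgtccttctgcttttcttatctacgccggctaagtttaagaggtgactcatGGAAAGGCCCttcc
C1qb held 1 PU.1 match, starting 30 bases before the transcript start, and C1qc held 1, starting 193 bases before it. C3ar1 held 1 NF-kappaB match at 14 bases, and C3 held no match to the 4 motifs. No marked match overlapped another. Of 32851 RefSeq mouse windows of the same length, 23.3% held the PU.1 core, 4.11% the NF-kappaB motif, 7.02% the STAT palindrome and 2.98% the interferon element, so a PU.1 match is common. The windows of C1qa, C2, C4b, Cfb and Serping1 were not analysed here.

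Per kilobase of exon, C3 was the most abundant member. It averaged 64.1 CPM per kb over the 15 mice (range 37.8 to 114), followed by Serping1 at 33.2 (24.9 to 45.9), C1qa at 20.9 (13.0 to 32.5) and C1qb at 16.3 (9.30 to 24.8). C4b averaged 11.7 CPM per kb, C1qc 10.7, Cfb 5.37, C2 1.85 and C3ar1 1.35. The length of a gene was that of all exon bases in its annotated transcripts together. It was 1931 bases for C1qc, with 2 transcripts, and 1040 and 1088 for C1qa and C1qb, with 1 each. Without division by length C1qc averaged 20.6 CPM, C1qa 21.8 and C1qb 17.7, so the place of C1qc in the order depends on the length used. In 6 of the 8 steps of this order the upper gene exceeded the next in each of the 15 mice. The exceptions were C4b over C1qc, in 10 of 15 mice with a mean difference of 1.0 ± 2.95 CPM per kb (SD, n = 15), and C2 over C3ar1, in 13 of 15 mice with 0.50 ± 0.50. C4b and C1qc therefore do not differ beyond their spread over the 15 mice, which includes differences between groups: C4b averaged 17.6 CPM per kb against 13.7 for C1qc in aged V338Y mice, and 6.33 against 9.01 in young V338Y mice. The plot of levels per kilobase shows the value of each mouse.

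**Figure D1:**
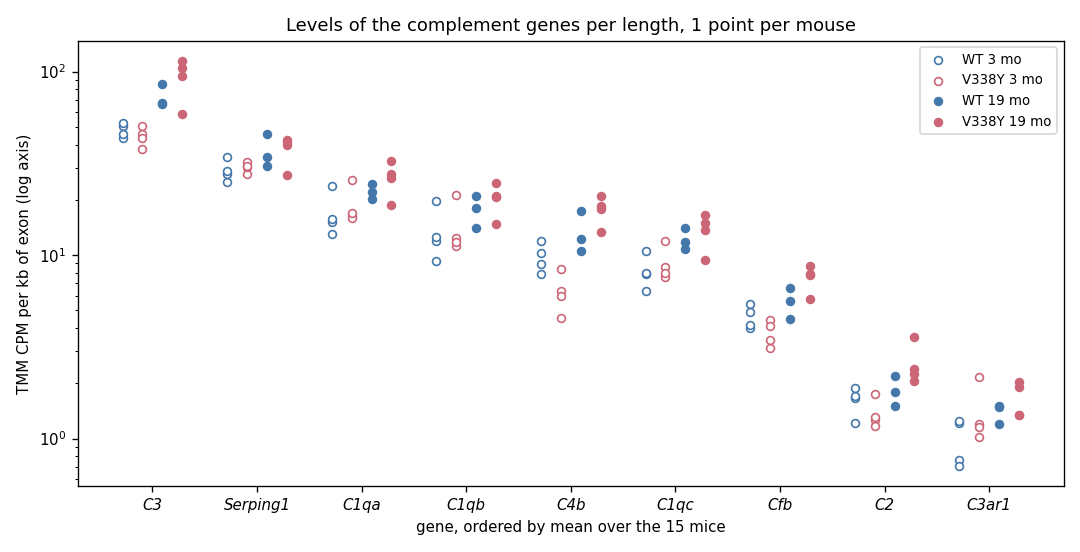
Level of each member in CPM per kb of exon on a log axis, 1 point per mouse, with open points for 3 mo and filled points for 19 mo mice. C3 is highest in every mouse, at 37.8 to 114 CPM per kb, and C3ar1 the lowest on average, at 0.708 to 2.17.

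C3, the shared target of the classical and alternative pathways, was higher at 19 mo in both genotypes. In wild-type mice at 3 mo it stood at 222, 261, 234 and 269 CPM, and at 19 mo at 346, 442 and 341. In V338Y mice it stood at 235, 195, 224 and 259 CPM at 3 mo, and at 540, 489, 588 and 303 in mice 2 to 5 at 19 mo. The 19 mo values did not overlap the 3 mo values in either genotype, and the lowest aged V338Y value, that of mouse 5, was below all 3 aged wild-type values. The log2 fold change with age was 0.61 ± 0.12 (SE) in wild-type (edgeR adjusted p = 0.00476) and 1.09 ± 0.20 in V338Y mice (adjusted p = 0.00191), a fold of 1.53 and 2.13. C3 kept its call with each mouse left out and in the other settings tried in both genotypes.

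C4b, the murine C4 of the classical pathway, and Cfb, the alternative pathway factor, rose with age in V338Y mice. C4b stood at 45.1, 51.1, 58.2 and 68.3 CPM in young wild-type and 69.8, 99.1 and 60.2 in aged wild-type mice. It stood at 36.2, 34.2, 25.8 and 48.0 CPM in young V338Y and 120, 101, 105 and 75.9 in aged V338Y mice. The wild-type ages overlapped in C4b, while the V338Y ages did not. The log2 fold change with age of C4b was 1.49 ± 0.20 in V338Y mice (edgeR adjusted p = 4.03e-04) and 0.46 ± 0.19 in wild-type mice (adjusted p = 0.0816). The wild-type value of C4b rested on single mice. It was called without 19 mo mouse 5 (0.59, adjusted p = 0.0378) and was 0.21 without 19 mo mouse 4 (adjusted p = 0.368). The replicate block also called C4b (0.50, adjusted p = 0.0402). In wild-type mice that block takes the age change from mice 2 and 4 alone, whose numbers occur at both ages. It too gives no weight to 19 mo mouse 5, so the block is not a separate check. Cfb stood at 11.3, 11.7, 15.4 and 13.9 CPM in young wild-type, 15.8, 18.7 and 12.7 in aged wild-type, 12.6, 11.6, 8.76 and 9.67 in young V338Y, and 24.6, 22.3, 22.1 and 16.4 in aged V338Y mice. The Cfb log2 fold change was 1.01 ± 0.16 in V338Y mice (adjusted p = 9.06e-04) and 0.27 ± 0.16 in wild-type mice (adjusted p = 0.209). The V338Y ages did not overlap in Cfb, and mouse 5 was again the lowest of its group.

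C2, the protease that binds C4b, gave the same pattern at a low level. It stood at 6.47, 4.68, 6.63 and 7.34 CPM in young wild-type and 5.84, 8.44 and 6.94 in aged wild-type mice. It stood at 6.78, 4.86, 4.55 and 5.07 CPM in young V338Y and 13.9, 8.71, 9.22 and 8.02 in aged V338Y mice. Only the V338Y ages were separated. The log2 fold change of C2 was 0.90 ± 0.21 in V338Y mice (edgeR adjusted p = 0.00610) and 0.18 ± 0.19 in wild-type mice (adjusted p = 0.50). With the counts of C2, Cfb and Gm20547 summed into 1 value, the change was 0.98 in V338Y mice (adjusted p = 9.49e-04) and 0.26 in wild-type mice (adjusted p = 0.186), and with C4a and C4b summed it was 1.49 and 0.44. The calls for C2, Cfb, C3 and C4b in V338Y mice held with each mouse left out.

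The C1q chains were higher at 19 mo in the means of both genotypes, but only C1qc passed the test. C1qc stood at 15.3, 12.3, 15.4 and 20.4 CPM in young wild-type mice and 22.9, 27.0 and 20.7 at 19 mo, without overlap. In V338Y mice it stood at 23.0, 16.6, 14.6 and 15.4 CPM at 3 mo and 32.1, 28.9, 26.5 and 18.2 at 19 mo, where mouse 5 lay below the highest 3 mo value. Its log2 fold change was 0.58 ± 0.17 in wild-type (edgeR adjusted p = 0.0245) and 0.61 ± 0.19 in V338Y mice (adjusted p = 0.0271). These calls were fragile: the wild-type call was lost without 3 mo mouse 1 (adjusted p = 0.0519), 3 mo mouse 3 (0.0592) or 19 mo mouse 4 (0.102), and the V338Y call was lost in 6 of the 8 fits that left 1 mouse out (adjusted p of 0.0523 to 0.0772). C1qa averaged 17.6 ± 5.0, 19.4 ± 4.8, 23.0 ± 2.2 and 27.4 ± 5.9 CPM in young wild-type, young V338Y, aged wild-type and aged V338Y mice, and its log2 change with age was 0.40 ± 0.19 (adjusted p = 0.128) and 0.50 ± 0.20 (adjusted p = 0.0582). C1qb averaged 14.5 ± 4.9, 15.3 ± 5.1, 19.3 ± 3.7 and 22.1 ± 4.5 CPM, and its change was 0.41 ± 0.23 (adjusted p = 0.199) and 0.52 ± 0.22 (adjusted p = 0.0792).

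C1qa and C1qb had the highest correlation among the 36 pairs of members. After removing group means, the log2 levels of C1qa and C1qb had a Pearson r of 0.949 over the 15 mice (Spearman rho 0.936), and 0.890 without the 2 mice farthest from the median of C1qa. C1qa and C1qc gave r = 0.886 (rho 0.836, 0.813 without 2 mice), and C1qb and C1qc 0.748 (rho 0.689, 0.547 without 2 mice). Per kilobase the ratio of C1qa to C1qb stayed within 1.05 to 1.45 and that of C1qc to C1qb within 0.514 to 0.853, while the summed C1q level ran from 38.9 to 92.9 CPM. The size of these ratios depends on the exon lengths used. Among pairs of a C1q chain with another member, or of other members, 4 lay above C1qb with C1qc: C1qc with C2 gave r = 0.815 (rho 0.793, 0.774 without 2 mice), C1qc with Cfb 0.809 (rho 0.811, 0.711), C1qb with C3ar1 0.785 (rho 0.650, 0.607) and C3 with Serping1 0.768 (rho 0.696, 0.638). These values share the library and its scaling and are given as a description.

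Serping1 and C3ar1 did not pass in the reported fits. Serping1 averaged 67.2 ± 9.1 and 85.9 ± 18.6 CPM in wild-type and 70.1 ± 4.5 and 87.5 ± 16.4 in V338Y mice at 3 and 19 mo, a log2 change of 0.36 ± 0.15 (edgeR adjusted p = 0.0969) and 0.33 ± 0.14 (adjusted p = 0.0772). Aged V338Y mouse 5 had 63.3 CPM, below each young V338Y mouse, and without it the change was 0.47 (adjusted p = 0.00287). In wild-type mice Serping1 was called without 19 mo mouse 5 (0.47, adjusted p = 0.0451) and was 0.16 without 19 mo mouse 4 (adjusted p = 0.419). C3ar1 averaged 4.23 ± 1.24, 5.96 ± 2.29, 5.98 ± 0.72 and 7.11 ± 1.57 CPM in young wild-type, young V338Y, aged wild-type and aged V338Y mice. Its change was 0.50 ± 0.23 in wild-type (adjusted p = 0.114) and 0.24 ± 0.26 in V338Y mice (adjusted p = 0.471), with a 95% interval of −0.34 to 0.82 in V338Y mice. Without young V338Y mouse 1 the V338Y change of C3ar1 was 0.55 (adjusted p = 0.0577). With the replicate block Serping1 and C3ar1 were both called in V338Y mice (adjusted p = 0.0227 and 0.0406). That block gives no weight to V338Y mouse 1 at 3 mo and mouse 5 at 19 mo, whose numbers occur at 1 age alone.

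**Figure D2:**
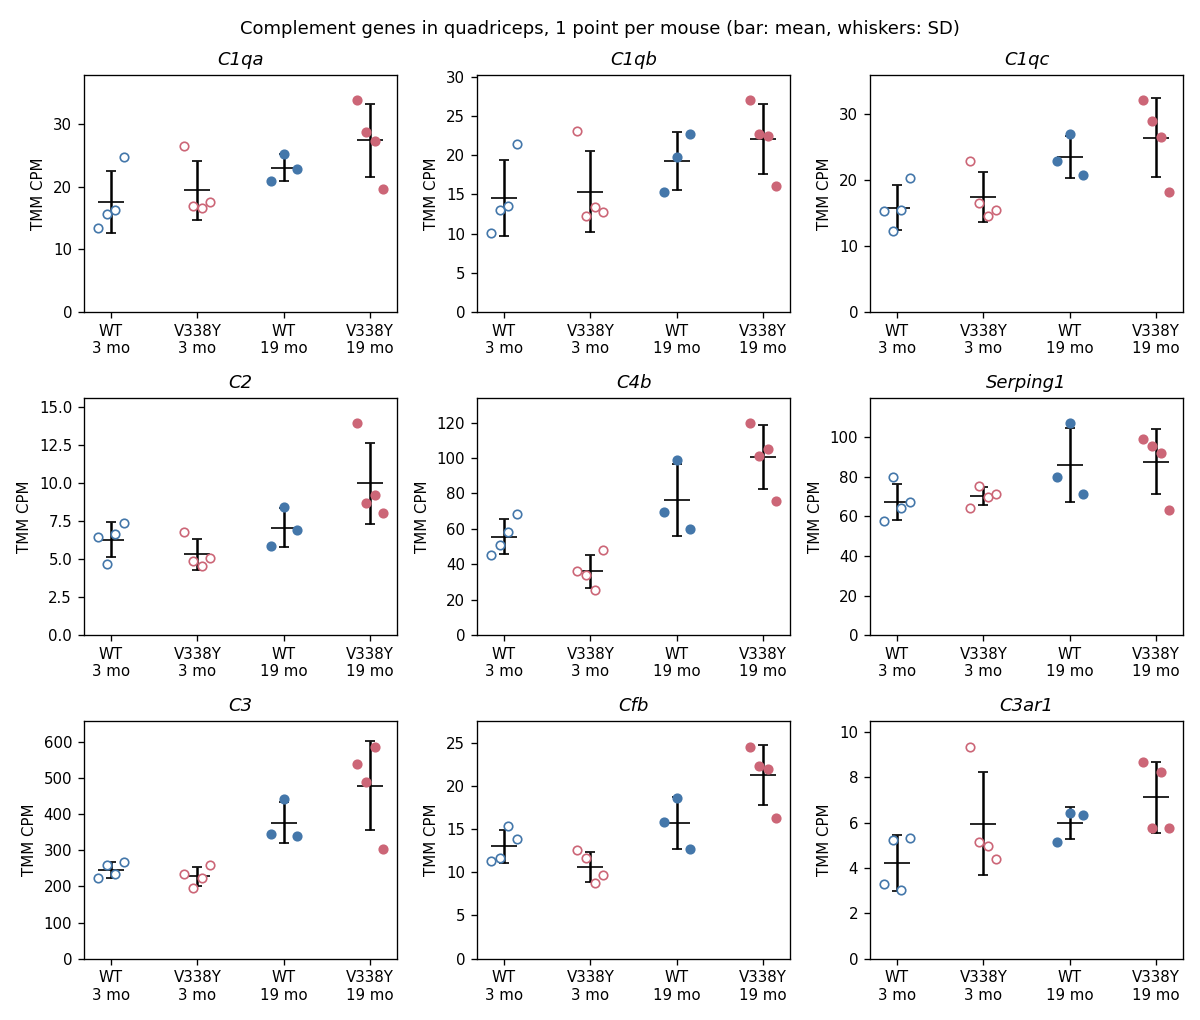
TMM-scaled CPM of the 9 members in each mouse, with group means as bars and SD as whiskers, axes from 0, open points for 3 mo and filled points for 19 mo. The aged V338Y values of C4b (75.9 to 120 CPM) lie wholly above those of young V338Y mice (25.8 to 48.0), and 1 aged V338Y mouse is the lowest of its group for 8 of the 9 genes.

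Counted together, all 9 members had a positive log2 change with age in both genotypes, beside 51.4% of the genes tested in wild-type and 54.1% in V338Y mice. In wild-type mice 2 of 9 passed at an adjusted p under 0.05, both higher and both without overlap, where 36.2% of genes were called, 18.3% of 13657 genes were called higher and 21.7% were higher without overlap. That share of members is near the background. In V338Y mice 5 of 9 passed, all 5 higher, where 46.9% of genes were called, 24.4% of 13868 genes were called higher, and 4 of 9 were without overlap against 20.3%. The members' median log2 change was 0.41 (wild-type) and 0.61 (V338Y), beside 0.019 and 0.072 over the genes tested. Without aged V338Y mouse 5 the V338Y count was 8, with C3ar1 the exception, without young V338Y mouse 1 it was 7, and without any other single V338Y mouse 4, where C1qc was lost. Over all genes 6391 of 13565 were called without aged V338Y mouse 5 and 5824 of 13770 without young V338Y mouse 1. The wild-type count was 1 without 3 mo mouse 1, 3 mo mouse 3 or 19 mo mouse 4, and 4 without 3 mo mouse 4 or 19 mo mouse 5.

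V338Y and wild-type mice were then compared at each age. At 19 mo none of the 9 passed, where 0.0434% of 13833 genes were called, 6 in all, and 110 with the mouse number as a block, again with no member. All 9 estimates were positive, as were 51.6% of those of the genes tested, from 0.053 for Serping1 to 0.52 for C2, with a median of 0.28 beside 0.0080 over the genes tested. Cfb was the only member that reached 0.05 before adjustment (log2 fold change 0.46 ± 0.18, 95% interval 0.054 to 0.87, edgeR adjusted p = 0.541), where 6.17% of genes did so and were higher. With the mouse number as a block, C2 (0.57, adjusted p = 0.248) and C4b (0.44, adjusted p = 0.195) also reached it beside Cfb (0.45, adjusted p = 0.131). The block raised this number over all genes too: 2583 of 13833 genes reached 0.05 in either direction, against 1235 in the reported fit. In the reported fit the 95% interval was −0.00036 to 1.04 for C2, −0.056 to 0.90 for C4b and −0.15 to 0.92 for C3. The aged genotypes overlapped for each member. DESeq2 also called none.

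At 3 mo none of the 9 passed either, where 0.075% of 13333 genes were called. C4b had a log2 difference of −0.63 ± 0.18, V338Y minus wild-type (95% interval −1.02 to −0.24), with an unadjusted p of 0.00468, an edgeR adjusted p of 0.366 and a DESeq2 adjusted p of 0.0561. A single V338Y mouse, at 48.0 CPM, reached into the wild-type range of 45.1 to 68.3. Of the genes tested, 4.67% were lower at an unadjusted p under 0.05. Cfb and C2 also had negative estimates, −0.28 ± 0.14 and −0.22 ± 0.18, and C3ar1 the highest positive one, 0.53 ± 0.28 (adjusted p = 0.568), which was 0.20 without young V338Y mouse 1 (adjusted p = 0.833).

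The difference between the age changes in V338Y and in wild-type mice was tested in 1 fit of all 15 mice. It was 1.03 ± 0.29 for C4b on the log2 scale (95% interval 0.40 to 1.65), 0.72 ± 0.24 for Cfb (0.22 to 1.22) and 0.71 ± 0.29 for C2 (0.090 to 1.34). These 3, all in the class III region, were the members that reached 0.05 before adjustment, where 5.06% of genes did so and were higher. C3 had 0.46 ± 0.25, while C1qa, C1qb, C1qc and Serping1 lay between −0.035 and 0.10 and C3ar1 at −0.28 ± 0.37. None passed after adjustment (edgeR adjusted p of 0.388 or more), where 0 of 14128 genes did (0%), 1361 reached 0.05 before adjustment and 26 were called with DESeq2, none of them members. A greater rise of complement genes with age in V338Y than in wild-type mice is therefore not shown by this test, and the calls of C2, C4b and Cfb in 1 genotype alone do not show it. The contrast includes the low young V338Y values of C4b as well as the high 19 mo ones.

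**Figure D3:**
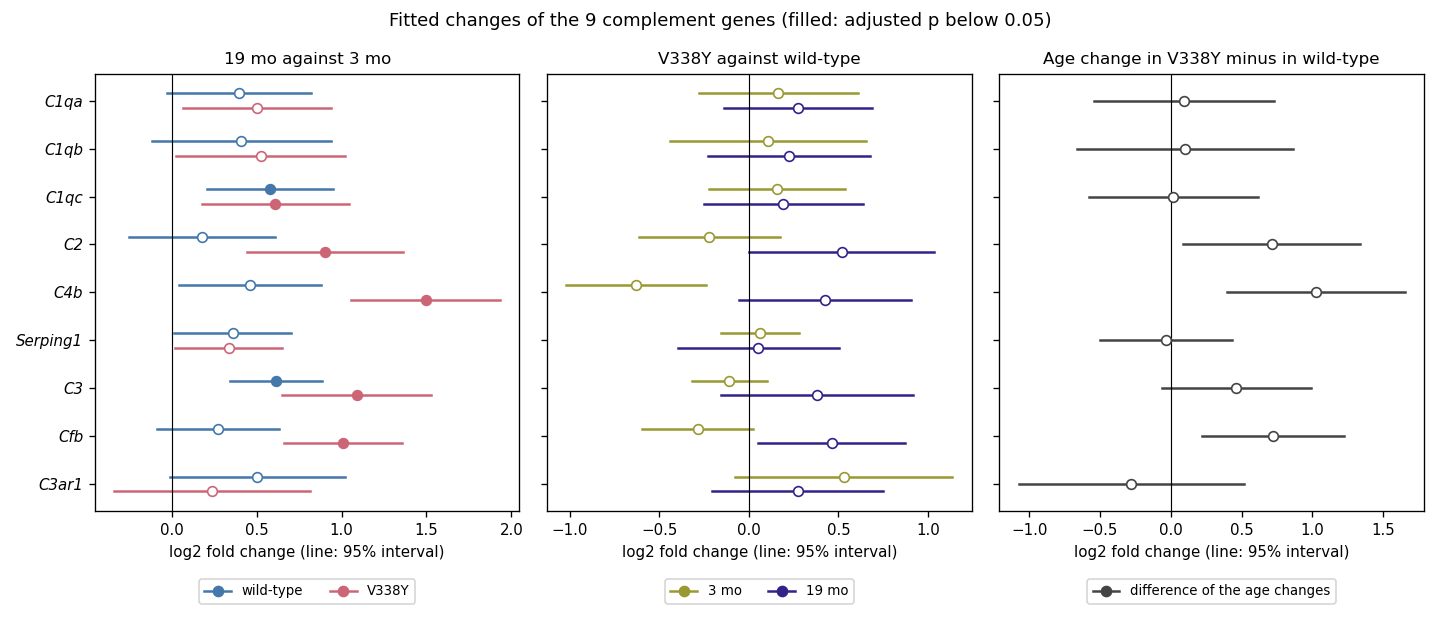
Log2 fold changes of the 9 members with 95% intervals for age in each genotype, for V338Y against wild-type at each age, and for the difference of the age changes, with filled points where the adjusted p is below 0.05. Filled points are present for age alone, 2 in wild-type and 5 in V338Y mice, and C4b has the highest difference of age changes, 1.03.

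Of 49 other complement genes in the list, 33 were tested with age in wild-type mice, with 7 higher and 10 lower, and 27 in V338Y mice, with 8 higher and 3 lower. With 18.3% and 24.4% of all genes called higher, these shares of higher genes are near the background. Over all genes tested, 2435 of 13657 were called lower in wild-type and 3116 of 13868 in V338Y mice. C1ra, a protease of the C1 complex, rose by 0.48 ± 0.13 in wild-type (edgeR adjusted p = 0.0198) and 0.63 ± 0.20 in V338Y mice (adjusted p = 0.0290). Its partner C1s1 rose in wild-type mice (0.44 ± 0.14, adjusted p = 0.0339) and had 0.41 ± 0.17 in V338Y mice (adjusted p = 0.0716). Properdin (Cfp), which stabilizes the alternative pathway enzyme, rose in V338Y mice by 1.06 ± 0.20 (adjusted p = 0.00250) and had 0.30 ± 0.24 in wild-type mice. The differences between genotypes in C1ra, C1s1 and Cfp did not pass in the test of the difference.

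Among receptors, C5ar1, which binds C5a, rose in wild-type (0.70 ± 0.22, adjusted p = 0.0323) and V338Y mice (0.78 ± 0.16, adjusted p = 0.00410). The CR3 integrin chains Itgam and Itgb2 rose in V338Y mice by 1.21 ± 0.23 and 1.11 ± 0.30 (adjusted p = 0.00224 and 0.0131) and had 0.056 ± 0.20 and 0.25 ± 0.28 in wild-type mice. The test of the difference did not pass for Itgam (1.14 ± 0.33, adjusted p = 0.388) or Itgb2 (0.84 ± 0.45, adjusted p = 0.571). These chains are also carried by neutrophils, whose markers were high in aged V338Y mouse 5, and their part in the result was not tested. Of 12 regulators tested in wild-type mice 2 were higher and 5 lower, and of 8 in V338Y mice 2 were higher and 1 lower. Over all genes 2505 of 13657 were higher and 2435 lower in wild-type mice, and 3389 of 13868 higher and 3116 lower in V338Y mice. The complement inhibitor Clu fell in wild-type (−0.61 ± 0.19, adjusted p = 0.0353) and V338Y mice (−1.07 ± 0.33, adjusted p = 0.0243), while Csmd1 rose in both (1.96 ± 0.29 and 2.56 ± 0.34, adjusted p = 0.00144 and 4.12e-04). Cd55, which speeds the decay of the C3-cleaving enzymes, rose in wild-type mice by 0.39 ± 0.11 (adjusted p = 0.0232), and vitronectin (Vtn), which blocks the terminal complex, fell by 0.88 ± 0.22 (adjusted p = 0.0150). The factor I gene Cfi and the carboxypeptidase subunit gene Cpn2 were also lower in wild-type mice (adjusted p = 0.0311 and 9.79e-04), both at low levels. Cfi was between 0.182 and 4.44 CPM in young mice and at 0 in all 3 aged mice. Cpn2 was between 0.906 and 2.19 CPM in young mice and at 0 in 2 of 3 aged mice. In young wild-type mice the highest values of Vtn (25.7 CPM), Cfi and Cpn2 were all those of mouse 3, which had the highest hepatocyte markers. The part of hepatocyte RNA in these falls was not tested.

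The terminal component C7 went the other way from the members. It averaged 19.2 ± 5.0 CPM in young wild-type, 20.8 ± 6.7 in young V338Y, 3.20 ± 1.92 in aged wild-type and 3.17 ± 2.23 in aged V338Y mice. It fell by 2.62 ± 0.38 in wild-type (edgeR adjusted p = 0.00117) and 2.64 ± 0.40 in V338Y mice (adjusted p = 8.19e-04) on the log2 scale, without overlap. Other terminal genes that passed as lower in wild-type mice (Hc, C8a, C8b and C9) averaged 1.18 to 4.80 CPM at 3 mo and at most 0.123 at 19 mo as wild-type group means, and in young wild-type mice the highest value of each was that of mouse 3, at 3.12 to 12.9 CPM, the mouse with the highest hepatocyte markers. The hepatocyte list summed to 35.2 to 360 CPM in young wild-type and 1.24 to 8.88 in aged wild-type mice, with Alb and Apoa1 above 0 in each of the 15 mice, and its part in these results was not tested.

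**Figure D4:**
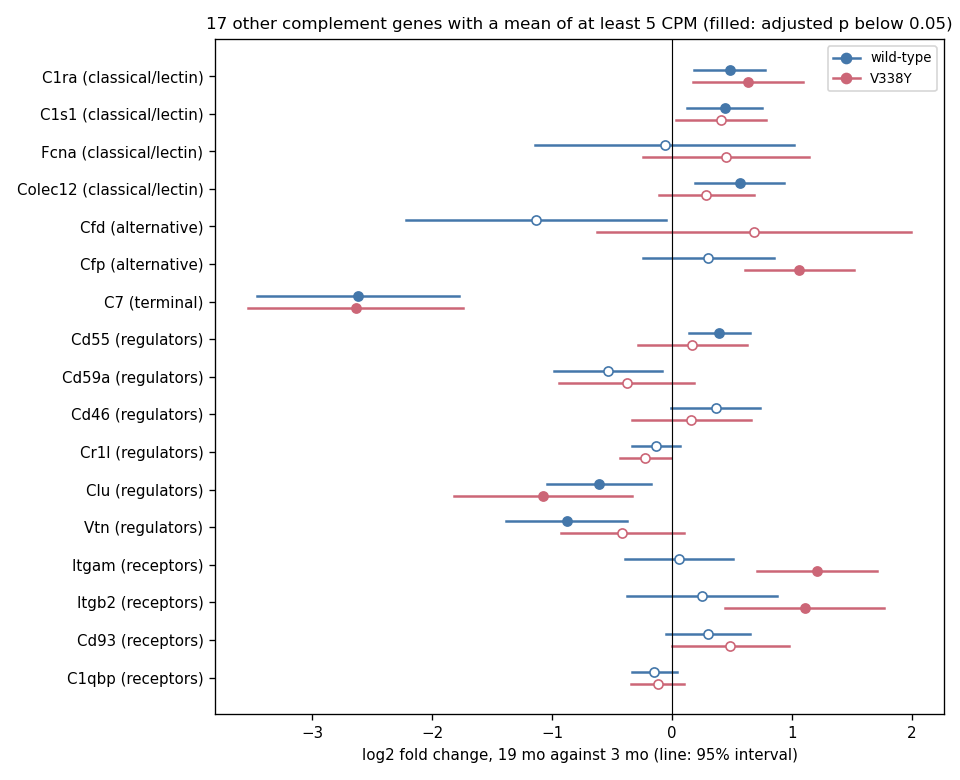
Log2 fold changes of 19 mo against 3 mo for 17 other listed complement genes that averaged at least 5 CPM, with 95% intervals, blue for wild-type and red for V338Y mice and filled points where the adjusted p is below 0.05. C7 stands alone at −2.62 and −2.64, while C1ra is higher with age in both genotypes, and Cfp, Itgam and Itgb2 have filled points for V338Y and open points for wild-type mice, differences that did not pass when tested.

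Cell type markers moved with the same comparisons. Fewer cells of a type and less RNA per cell cannot be told apart in whole muscle. The 12 macrophage markers summed to 204 to 291 CPM in young wild-type, 309 to 365 in aged wild-type, 229 to 364 in young V338Y and 364 to 438 in aged V338Y mice. In wild-type mice 5 of 11 tested were called higher with age, and in V338Y mice 6 of 12, among them the defining Adgre1 (0.74 ± 0.19 and 0.92 ± 0.21) and Csf1r (0.61 ± 0.11 and 0.60 ± 0.15) but not Cd68. Over all genes tested, 18.3% were called higher in wild-type and 24.4% in V338Y mice, the background for each count of higher markers in this paragraph. The 3 defining macrophage markers were above 0 in each mouse, and the part of macrophages in the C1q and C3 values was not tested. The 8 fibroblast markers summed to 1273 to 2000 CPM in young wild-type, 1095 to 1449 in aged wild-type, 1900 to 1990 in young V338Y and 857 to 1885 in aged V338Y mice. With age 3 of 8 were called lower in each genotype, 1 was called higher in wild-type and 0 in V338Y mice. The log2 change was positive for 4 of 8 and 3 of 8. Over all genes 2435 of 13657 were called lower in wild-type and 3116 of 13868 in V338Y mice. Endothelial markers gave 2 of 5 and 3 of 5 higher. They summed to 149 to 187 CPM in young and 201 to 309 in aged wild-type mice. In V338Y mice the sums were 148 to 174 and 214 to 334 CPM, so the ages did not overlap in either genotype. The part of endothelial cells in the members' changes was not tested. The 8 neutrophil markers were at 4.79 CPM or less in 11 of 11 mice of the other groups, with Ltf at 0 in 9 of the 15 mice, and at 2.90, 26.3, 4.91 and 619 CPM in aged V338Y mice 2 to 5. The mouse with 619 CPM was the lowest of its group for 8 of the 9 members. Of the 6 lymphocyte markers 1 of 2 tested was higher with age in wild-type (Jchain) and 3 of 4 in V338Y mice (Jchain, Ms4a1 and Cd79a), with Cd3e and Cd3g at 0 in 7 mice each. The 8 muscle fiber markers summed to 265539 to 296311 CPM in young and 155697 to 248116 in aged V338Y mice, without overlap, and to 239906 to 284433 and 214958 to 265882 in wild-type mice. Among them Acta1 and Ckm fell in V338Y mice, and Ckm fell while Myh7 rose in wild-type mice. The part of fibers and lymphocytes in the members' changes was not tested. Adipocyte markers ran from 146 to 1101 CPM with the 4 groups overlapping, but their changes with age differed in sign between the genotypes. In wild-type mice 0 of 6 had a positive log2 change, and 2 were called lower. In V338Y mice 6 of 6 were positive, and 2 were called higher. Of all genes tested, 51.4% were positive in wild-type and 54.1% in V338Y mice. The differences of the age changes were 1.62 to 2.58, and 0 of 6 passed (edgeR adjusted p of 0.364 or more). The part of adipocytes in the members' changes was not tested.

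**Figure D5:**
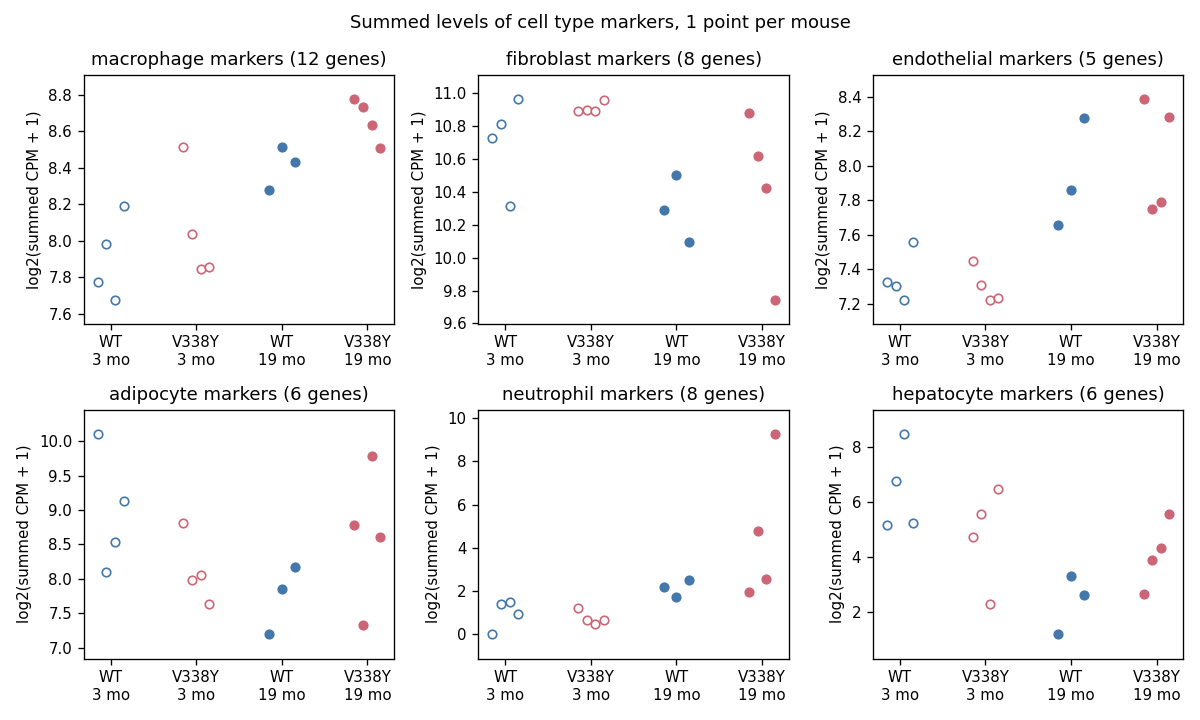
Summed level of 6 marker lists in each mouse as log2 of CPM + 1, with open points for 3 mo and filled points for 19 mo mice. Macrophage sums are higher in aged wild-type (309 to 365 CPM) than in young wild-type mice (204 to 291), and 1 aged V338Y mouse has 619 CPM of neutrophil markers.

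The genes most like the members across mice were listed from 12825 genes of at least 1 CPM on average, by the Pearson r of deviations from group means of log2(CPM + 0.5) over the 15 mice. For the mean of the C1q chains they were Cfp (0.930), Dclk1 (0.910), Stab1 (0.901), Gpr146 (0.895) and Crip1 (0.893). For Serping1 they were Lyve1 (0.950), Tgfbi (0.935), Plat (0.912), C1s1 (0.907) and Igfbp6 (0.899). Cfp and C1s1 are themselves complement genes, and Lyve1 is 1 of the 12 macrophage markers above. For C3 they were Retnla (0.925), Dnm1 (0.923), Lrrn4cl (0.921), Fn1 (0.901) and Ntn1 (0.900). Those named for C4b were Siah2 (0.870), Gemin7 (0.845), Ptpn9 (0.837) and Zfp14 (0.831), so the C4b list has the lowest values of r. These are descriptions over mice that share library scaling, taken as the highest of many genes.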

How the data were processed

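Quadriceps RNA of 15 mice was sequenced as stranded single-end reads, and the authors deposited an expected count per gene, estimated with RSEM. The methods and the submitters' processing notes name different builds, the notes also list STAR 2.4.2a and bcl2fastq 1.8.4, and which build gave the counts was not settled. Positions and lengths given here are of GRCm38. RSEM divides reads that match several genes. The deposited counts were whole numbers, without scaling for depth or length. Mice were grouped by the labels' age and genotype. The members and gene lists were chosen with earlier results of these data known. A gene entered a comparison if 10 or more counts were reached by 50% or more of either group, and edgeR 4.0.16 (R 4.3.3) TMM factors and quasi-likelihood tests were used, with Benjamini-Hochberg adjustment over the genes tested. Named genes are the 9 members, listed complement genes past an adjusted p of 0.05 or with a mean of at least 5 CPM, the first 3 markers of each list, the label checks, and the 5 most similar genes per pattern. Positions and exon lengths are from GENCODE M21 and promoters from RefSeq.

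Alternatives were DESeq2 1.42.0, the likelihood ratio test, RLE and upper-quartile scaling, other filters, a replicate block, a fit of 15 mice, summed overlapping genes and each mouse left out. P-values measure the spread between these mice, and counts of mice within groups differed beyond sampling noise (chi-square divided by its degrees of freedom, 5.47 to 101). Mouse numbers recur between groups. At 19 mo the 3 same-numbered pairs correlated in their deviations from group means at 0.134 to 0.423, over 0.1 in each. Mice with different numbers gave −0.442 to 0.502, and the highest value lay among them. The numbers may mark pairs at 19 mo, from the data alone, but these values do not establish it. In the other comparisons the numbers were not read as pairs. The code was tested on simulated data. The values of some listed genes are not reported here, though they are within the counts of their lists.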

Additional observations from a re-analysis of the deposited data

Results flagged for a closer look

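In 27 groups of 4 mice tested for a mouse far from the others, 3 members stood out, each in the same mouse, V338Y mouse 1 at 3 mo. C1qa was at 26.5 CPM there against 16.5 to 17.6 in the other 3 mice, C1qb at 23.0 against 12.2 to 13.4, and C3ar1 at 9.36 against 4.38 to 5.14. Chance flags about 1 in 20 groups, and the members are not independent of each other. That mouse also had the highest summed macrophage markers of its group, 364 CPM against 229 to 262. Without it the log2 change of C1qb with age in V338Y mice was 0.79 (edgeR adjusted p = 0.00730) and that of C1qa 0.69 (adjusted p = 0.0139), both then called, and that of C3ar1 0.55 (adjusted p = 0.0577) in place of 0.24.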

How the results depend on the processing

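With age in wild-type mice the count of members called was 2 in the reported fit, 3 with a replicate block and 1 to 4 with a mouse left out. Over all genes these fits called 4940, 2229 and 3431 to 4837. With age in V338Y mice the count of members was 5, 6 with the likelihood ratio test, 9 with a replicate block and 4 to 8 with a mouse left out. Over all genes these called 6505, 6372 and 5505 of 13868 genes, and 5182 to 6448 with a mouse left out. In the block fits of age a mouse whose number occurs at 1 age alone adds nothing to the estimated change, by construction. In V338Y mice these are 3 mo mouse 1 and 19 mo mouse 5, the mice that stood apart above. In wild-type mice they are 3 mo mice 1 and 3 and 19 mo mouse 5. No member was called by genotype at either age or in the difference of age changes under any setting run, which is no evidence that levels were equal. Same-numbered pairs did not all correlate over 0.1 for age in wild-type (0.0047 to 0.030), age in V338Y (−0.142 to 0.0073) or genotype at 3 mo (−0.128 to 0.15). At 19 mo pairing was not established, and the block changed no member call.

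The reported estimates that changed sign lay between −0.28 (C3ar1, difference of age changes) and 0.16 (C1qa, genotype at 3 mo). In the difference of age changes C1qc was −0.0061 with the block. Leaving out a mouse gave −0.094 to 0.30 for C1qa, −0.12 to 0.39 for C1qb, −0.10 to 0.20 for C1qc, −0.15 to 0.15 for Serping1 and −0.41 to 0.060 for C3ar1 in that difference, −0.063 to 0.24 for Serping1 by genotype at 19 mo, and at 3 mo −0.037 to 0.37 for C1qa, −0.18 to 0.35 for C1qb, −0.019 to 0.30 for C1qc and −0.00036 to 0.15 for Serping1. The cause was not tested.

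Over all genes, calls by genotype at 19 mo numbered 6, and 62 with DESeq2, 72 with the likelihood ratio test, 14 with no filter, 110 with the block and 2 to 7 with a mouse left out. At 3 mo they numbered 10, and 66, 83, 33, 14 and 3 to 14. With age in wild-type the block gave 2229 in place of 4940. For the difference of age changes, 0 became 26, 36, 5 and 28 with DESeq2, the likelihood ratio test, no filter and the block. With no filter the median change of all genes with age in V338Y mice moved from 0.072 to 0.25, where more low genes were tested. The few counts of C2 and C3ar1 limit their precision.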
